A study of Mus musculus with 6 samples.

Results

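Somatostatin (Sst) and 8 further genes that stood high in delta cells and low in beta cells were followed across sorted mouse islet cells: Hhex, Arg1, Ptprz1, Cd24a, Gap43, Edn3, Ly6h and Eef1a2. They are 9 of 46959 rows of the deposited table. All 9 were found in it, and all 9 passed a filter that asks for 1 RPKM (reads scaled by gene length and by library depth) in 2 or more of the 6 libraries. The genes were chosen by name, with their levels in these same libraries already known. Their differences between the 3 populations are therefore described without a test, and what is asked is how much of the delta level each gene kept in transdifferentiated cells, and how alike the pools of animals were.

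The libraries come from 3 populations sorted from adult mouse islets, labelled as transdifferentiated, delta and beta cells. Transdifferentiated cells were positive both for a nuclear mCherry driven by an insulin promoter (mIns1-H2b-mCherry) and for YFP. Delta cells were sorted for YFP, and beta cells for mCherry. YFP came from a floxed allele that is switched on by Sst-cre, a recombinase driven by the somatostatin gene, and stays on in the descendants of a labelled cell. According to the series text, all 3 populations came from the same islets of mice that carry all 3 alleles, with the islets of 10 to 12 animals pooled by sex. The text also mentions females carrying fewer alleles, and it once calls alpha cells the origin of the transdifferentiated population, which its title, the sample labels and the use of Sst-cre all give as delta cells. Each population has 1 library of a female and 1 of a male pool (n = 2), and the delta and beta libraries are labelled as deposited before. The islets had been kept overnight in 5.5 mM glucose and 10% serum and dissociated with 0.25% trypsin.

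The depth behind the values was worked out from the step that 1 read makes in them. It was about 10900000 and 12500000 reads in the transdifferentiated, 15700000 and 17000000 reads in the delta, and 20500000 and 21600000 reads in the beta libraries of the female and male pools. Pairs of RPKM values, shares or read numbers below are likewise those of the female and male pools. For a gene of 1 kilobase, 3 reads were worth between 0.139 and 0.275 RPKM. In bulk RNA of sorted cells, fewer cells of a type and less RNA per cell cannot be told apart.

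Delta cells are the somatostatin-secreting cells of the islet. Somatostatin acts through Gi-coupled receptors on neighbouring alpha and beta cells and restrains the release of glucagon and insulin. In mice the homeobox factor HHEX is required in delta cells to keep up their identity and their somatostatin. The other genes encode an enzyme, cell-surface proteins, a secreted peptide and proteins better known from neurons.

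The hormone itself is written at the end of the Sst reading frame, which is why that stretch is shown. Sst lies on the minus strand of chromosome 16 (23889573 to 23890958, GRCm38, GENCODE M21) and has 116 codons. Its last 28 codons, chr16:23889732-23889815, encode somatostatin-28, and the last 14, in capitals, encode somatostatin-14, the main form of islet delta cells. The capitals hold 2 cysteine codons, whose residues close the ring of the peptide, and the codons printed before them hold 0.
Sst coding end: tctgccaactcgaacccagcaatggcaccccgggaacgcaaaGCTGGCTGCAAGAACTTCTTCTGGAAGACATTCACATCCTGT

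Promoter windows from RefSeq (GRCm38.p6) were matched for 5 of the 9 genes, Sst, Hhex, Ptprz1, Edn3 and Eef1a2. The 250 bases before the start are shown for Sst, for its regulator Hhex, and for the genes that kept the largest (Ptprz1) and the smallest (Edn3) share of their delta level. Capitals mark matches on either strand to TGACGTCA (the cyclic AMP response element), TAAT (a homeodomain core), TATAAA or GGGCGG (a GC box). The windows are chr16:23890845-23891094 on the minus strand for Sst, chr19:37434591-37434840 on the plus strand for Hhex, chr6:22875252-22875501 on the plus strand for Ptprz1 and chr2:174760369-174760618 on the plus strand for Edn3. GENCODE places the starts of Sst and Hhex further upstream, inside these windows.
Sst: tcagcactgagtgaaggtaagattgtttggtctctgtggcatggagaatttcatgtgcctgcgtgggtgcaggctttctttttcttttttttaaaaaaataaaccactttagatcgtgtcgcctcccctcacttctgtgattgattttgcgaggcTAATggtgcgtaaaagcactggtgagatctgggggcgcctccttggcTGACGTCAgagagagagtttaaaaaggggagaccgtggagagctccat
Hhex: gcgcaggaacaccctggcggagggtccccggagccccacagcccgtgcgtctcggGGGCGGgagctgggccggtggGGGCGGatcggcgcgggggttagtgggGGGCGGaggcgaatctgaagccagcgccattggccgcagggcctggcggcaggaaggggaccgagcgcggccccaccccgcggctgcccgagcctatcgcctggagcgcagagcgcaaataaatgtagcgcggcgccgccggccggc
Ptprz1: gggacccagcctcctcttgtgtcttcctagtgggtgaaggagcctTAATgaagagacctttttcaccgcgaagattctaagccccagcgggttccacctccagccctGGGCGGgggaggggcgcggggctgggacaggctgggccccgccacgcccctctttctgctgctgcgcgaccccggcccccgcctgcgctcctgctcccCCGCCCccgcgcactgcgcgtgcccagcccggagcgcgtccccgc
Edn3: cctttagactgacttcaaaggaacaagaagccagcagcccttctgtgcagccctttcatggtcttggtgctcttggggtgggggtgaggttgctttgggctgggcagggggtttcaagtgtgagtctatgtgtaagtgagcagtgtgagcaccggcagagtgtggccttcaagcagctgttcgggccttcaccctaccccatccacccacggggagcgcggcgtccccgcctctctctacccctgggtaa

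The Sst window held a cyclic AMP response element whose first base lies at -48, counted from the start, and a TAAT at -95. TGACGTCA was found in 1.55% of 32851 promoter windows of this length and TAAT in 54.9%. Hhex had 3 matches to GGGCGG, Ptprz1 had 2 and a TAAT at -205, and Eef1a2 had 1 match to GGGCGG, a motif of 32.7% of all windows. Edn3 matched none of these motifs, and TATAAA, present in 12.4% of all windows, was in none of the 5. The GC content was 47.2% for Sst, 76% for Hhex, 71.6% for Ptprz1, 59.2% for Edn3 and 54% for Eef1a2, against a median of 52.4% over all windows. No motif searched was common to all 5 windows, and a match describes letters, not binding.

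Sst was at 12933 and 12842 RPKM in the transdifferentiated libraries, at 58480.5 and 49769.6 RPKM in the delta libraries, and at 86.8 and 71.1 RPKM in the beta libraries. The populations did not overlap, and the transdifferentiated libraries were nearly equal while the delta libraries lay further apart. By mean RPKM Sst ranked 4 of 46932 symbols in transdifferentiated cells, 1 in delta cells and 445 in beta cells. It made up 3.30% and 3.36% of the summed RPKM of the transdifferentiated libraries, 15.4% and 13.5% of the delta libraries, and 0.0178% and 0.0121% of the beta libraries. Transdifferentiated cells thus held 22.1% and 25.8% of the delta level (24.0% ± 2.61, SD, n = 2 pools). The label that sorted these cells was itself set by Sst-cre, so their Sst level is not independent of the sort.

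Hhex, the homeobox regulator (chromosome 19, 37434810 to 37440731), was at 56.2 and 68.6 RPKM in the transdifferentiated, 175 and 172 RPKM in the delta, and 0.331 and 0.290 RPKM in the beta libraries. The delta libraries were close to each other, and the transdifferentiated libraries stood apart from both other populations. Hhex kept 32.1% and 39.9% of its delta level (36.0% ± 5.51, SD, n = 2 pools), more than Sst in each pool. For every 1000 units of Sst there were 4.34 and 5.34 units of Hhex in transdifferentiated, 2.99 and 3.46 in delta, and 3.82 and 4.08 in beta cells, as ratios of RPKM. In both pools this ratio was highest in transdifferentiated cells. The beta ratios rest on about 34 and 32 reads of Hhex, so counting error weighs on them, and the difference was not tested.

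**Figure D1:**
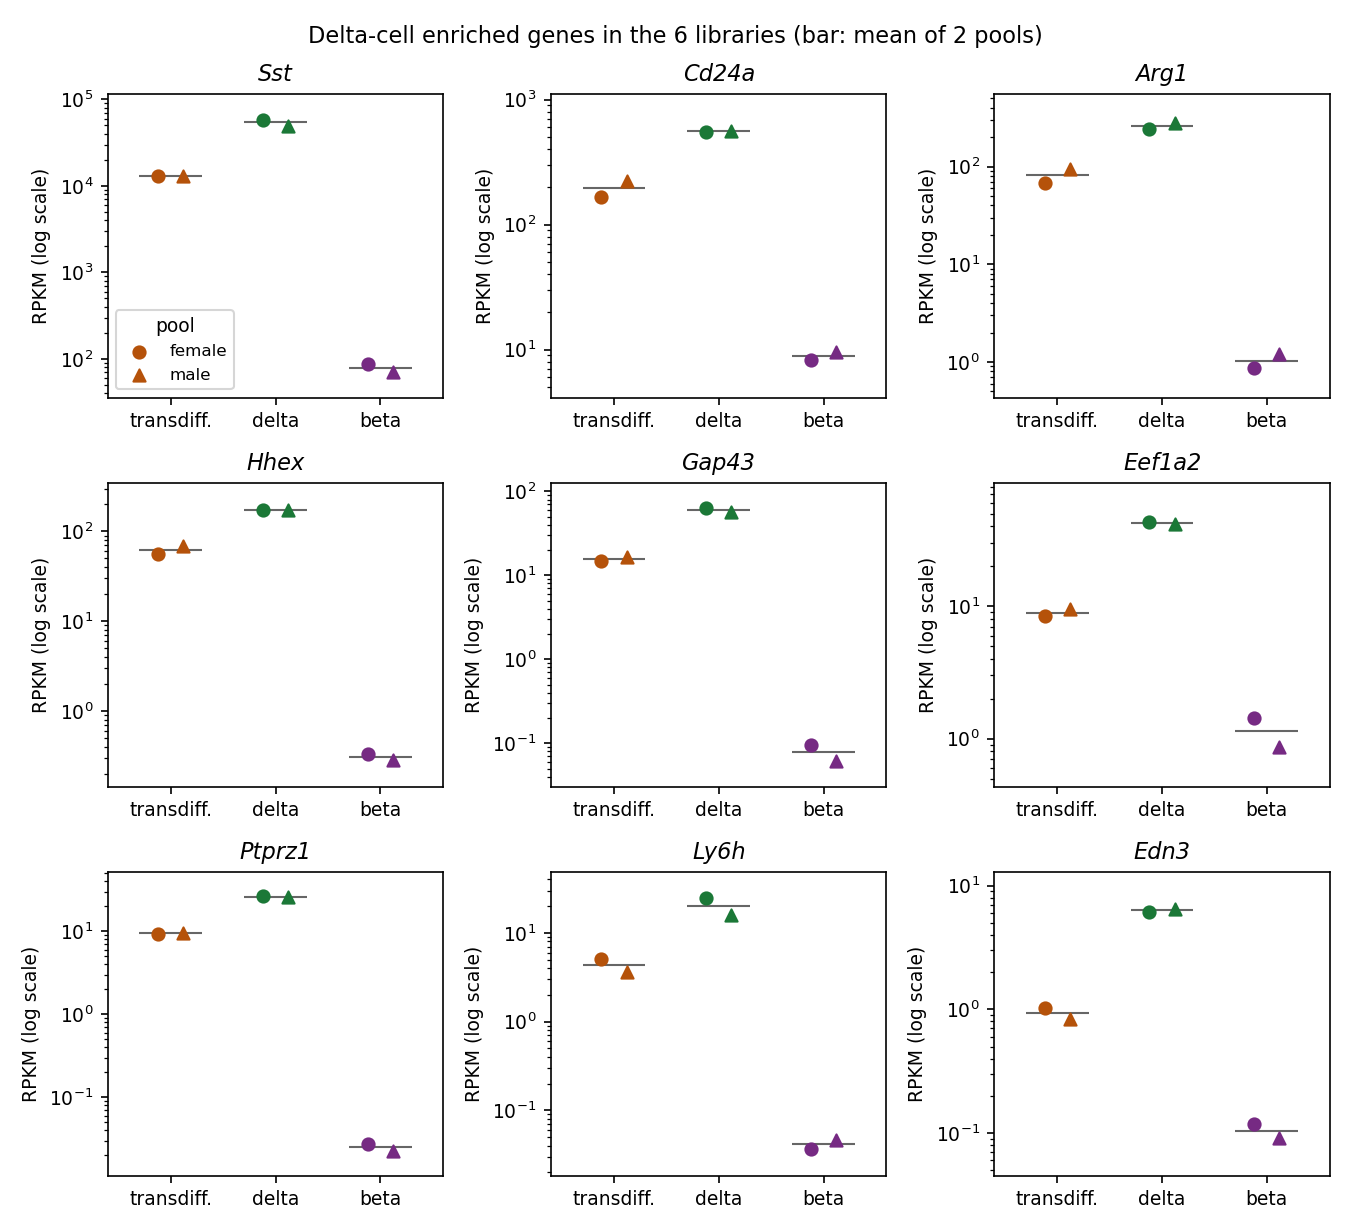
Levels of the 9 genes in RPKM (log axes, 1 panel a gene) in transdifferentiated, delta and beta libraries, with a point for each of the female and male pools and a bar at their mean. In each panel the transdifferentiated libraries lie between the delta and the beta libraries, as for Sst, at 12933 and 12842 RPKM in transdifferentiated, 58480.5 and 49769.6 RPKM in delta and 86.8 and 71.1 RPKM in beta cells.

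Arg1, the cytosolic arginase that splits arginine into ornithine and urea (chromosome 10, 24915221 to 24927484), was at 68.1 and 95.6 RPKM in transdifferentiated, 244 and 280 RPKM in delta, and 0.861 and 1.19 RPKM in beta cells. The populations did not overlap, and the female library was the lower one in each. Its share of the delta level was 27.9% and 34.1% (31.0% ± 4.40, SD, n = 2 pools). Arg2, the mitochondrial isoenzyme, was at 0.642 and 0.391 RPKM in transdifferentiated, 0.536 and 0.330 RPKM in delta, and 0.0685 and 0.0974 RPKM in beta cells, far below Arg1 in each library.

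Cd24a, a small glycoprotein held at the cell surface by a lipid (GPI) anchor (chromosome 10, 43578284 to 43584265), had the second highest level of the set in delta cells. It was at 167 and 226 RPKM in transdifferentiated, 554 and 561 RPKM in delta, and 8.25 and 9.54 RPKM in beta cells. The delta libraries were nearly equal, and the transdifferentiated ones lay further apart, with shares of 30.2% and 40.2% of the delta level (35.2% ± 7.12, SD, n = 2 pools), the widest gap between pools of the 9 genes. Of the 50-base windows of its transcript, 3.90% also occur in the predicted gene Gm6212, so some of its reads may be shared. For the other 8 genes such windows made up 0.627% or less.

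Ptprz1, a receptor tyrosine phosphatase of neural precursors and glia that binds pleiotrophin (chromosome 6, 22875502 to 23052916), was at 9.30 and 9.61 RPKM in transdifferentiated, 26.3 and 25.9 RPKM in delta, and 0.0275 and 0.0228 RPKM in beta cells. These values correspond to 1444 and 1716 reads in transdifferentiated, 5863 and 6248 reads in delta, and 8 and 7 reads in beta cells. It kept the largest mean share, 35.4% and 37.2% (36.3% ± 1.24, SD, n = 2 pools), and its pools differed least among the 9 genes. The 95% intervals of these shares, which are exact and cover counting error only, were 33.4% to 37.5% and 35.2% to 39.2%.

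Gap43, a growth-cone protein that binds calmodulin (chromosome 16, 42248442 to 42340651), was at 14.8 and 16.6 RPKM in transdifferentiated, 63.8 and 57.0 RPKM in delta, and 0.0963 and 0.0609 RPKM in beta cells. The beta values rest on 3 and 2 reads, so they show only that Gap43 was near the limit of detection there. Its share of the delta level was 23.1% and 29.1% (26.1% ± 4.24, SD, n = 2 pools), the middle of the 9 genes.

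Ly6h, a GPI-anchored protein that binds neuronal nicotinic receptors (chromosome 15, 75551268 to 75567255), was at 5.10 and 3.64 RPKM in transdifferentiated, 24.6 and 15.7 RPKM in delta, and 0.0366 and 0.0462 RPKM in beta cells. As a ratio, its delta libraries differed more from each other than those of the other 8 genes. The female library was the higher one in both YFP-positive populations, and the shares were close, 20.7% and 23.1% (21.9% ± 1.70, SD, n = 2 pools).

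Eef1a2, the form of elongation factor 1 alpha known from neurons and muscle (chromosome 2, 181147653 to 181157014), was at 8.36 and 9.53 RPKM in transdifferentiated, 42.9 and 41.4 RPKM in delta, and 1.43 and 0.868 RPKM in beta cells. Its share was 19.5% and 23.0% (21.3% ± 2.497, SD, n = 2 pools). Eef1a1, the form used in most tissues, was at 400.2 and 414 RPKM in transdifferentiated, 487 and 422 RPKM in delta, and 426 and 463 RPKM in beta cells. For Eef1a1 the delta and beta libraries overlapped, and both transdifferentiated libraries lay below them, a difference that did not pass against delta cells (log2 fold change of transdifferentiated against delta cells -0.15, limma adjusted p = 0.47). Of the 50-base windows of the Eef1a2 transcript, 0 occur in another gene.

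Edn3, the precursor of the secreted peptide endothelin 3 (chromosome 2, 174760619 to 174784042), had the lowest level of the set in delta and in transdifferentiated cells. It was at 1.03 and 0.834 RPKM in transdifferentiated, 6.09 and 6.52 RPKM in delta, and 0.119 and 0.0902 RPKM in beta cells. These values correspond to 46 and 43 reads in transdifferentiated, 393 and 455 reads in delta, and 10 and 8 reads in beta cells. Edn3 kept the smallest share of its delta level, 16.8% and 12.8% (14.8% ± 2.86, SD, n = 2 pools). Its 95% counting interval was 12.1% to 22.9% in the female pool, which overlaps that of Eef1a2 (16.7% to 22.7%), and 9.13% to 17.5% in the male pool, which does not (20.0% to 26.4%).

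In order of mean share, from low to high, the genes were Edn3, Eef1a2, Ly6h, Sst, Gap43, Arg1, Cd24a, Hhex and Ptprz1. The pool values of Edn3 and Eef1a2 did not overlap, whereas those of each later pair of neighbours did. Compared within the same pool, the order from Edn3 up to Cd24a was the same in both pools. Among Cd24a, Hhex and Ptprz1 the order in the male pool was the reverse of that in the female pool. With 2 pools the order was not tested. Of all 36 pairs of genes, 26 had pool values that did not overlap. Sst, Ly6h and Eef1a2 lay below Arg1, Cd24a, Hhex and Ptprz1 in this way. All pairs rest on the same libraries, and pairs of other genes were not counted, so the separation was not tested. The largest mean share was 2.45 times the smallest. The median over the 9 genes was 23.1% in the female and 29.1% in the male pool, and 26.1% over the means. The female share was the lower one for 8 of the 9 genes, Edn3 being the exception. Within a pool all shares divide the same library by the same other library, so the 9 genes are not independent. This count was not taken over other genes and was not tested.

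The scale decides to which population these genes lie nearer. On the log2(RPKM + 1) scale, with the beta level at 0% and the delta level at 100%, the median place of the 9 genes in transdifferentiated cells was 71.0%. Hhex lay highest at 79.2% and Edn3 lowest at 29.5%, and Eef1a2 was at 51.0%. In linear RPKM, with the beta level subtracted, the median was 26.0%. Transdifferentiated cells thus lay nearer to beta cells in absolute level for each of the 9 genes, and nearer to delta cells on the log2(RPKM + 1) scale for all but Edn3 by the mean of the pools. The pseudocount weighs on a gene as low as Edn3: without it, Edn3 was 8.63 and 9.25 times as high in transdifferentiated as in beta cells, and 5.94 and 7.82 times lower in transdifferentiated than in delta cells, so by fold it also lay nearer to delta cells in both pools.

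**Figure D2:**
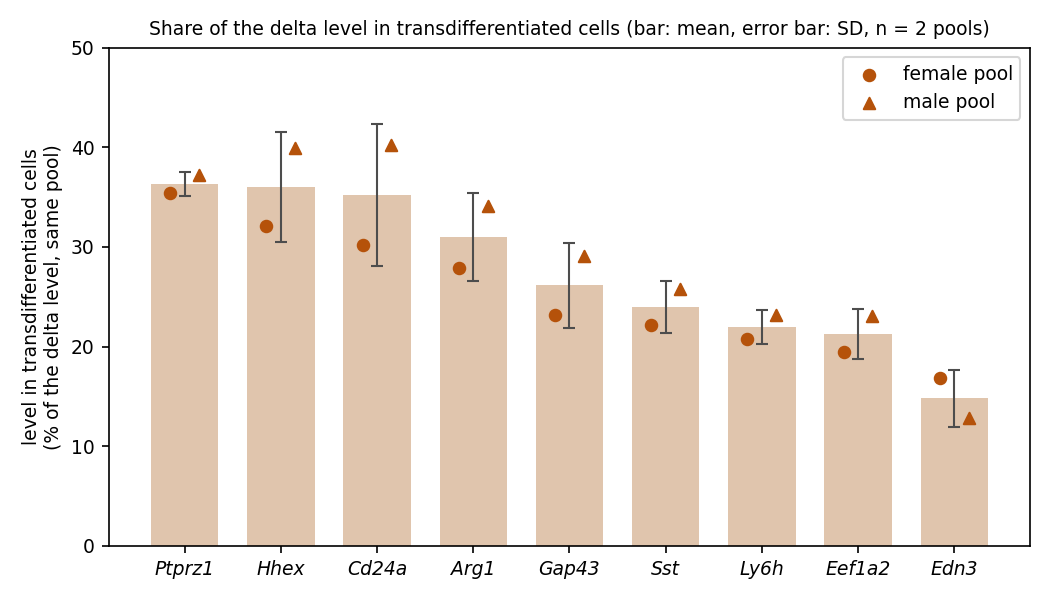
Level of each of the 9 genes in transdifferentiated cells as a percentage of the delta level of the same pool, with a point for each pool, and the mean and SD (n = 2 pools). The mean runs between 14.8% for Edn3 and 36.3% for Ptprz1, and Edn3 is the gene whose female value is above its male value.

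The summed alpha and PP markers also lay between their delta and beta levels in transdifferentiated cells. Gcg, the glucagon gene of alpha cells, was at 2368 and 1620 RPKM in transdifferentiated, 15846 and 14573 RPKM in delta, and 422 and 236 RPKM in beta cells, and kept 14.9% and 11.1% of its delta level. The alpha-cell regulator Irx1 kept 14.5% and 9.17%, and Irx2, another alpha-cell homeobox gene, kept 36.4% and 32.9%. The shares of Gcg and Irx1 lie near those of Edn3, 16.8% and 12.8%, while those of Irx2 lie near the largest of the 9 genes. All 3 were, like that of Edn3, higher in the female pool. The 9 alpha markers summed to 2604 and 1808 RPKM in transdifferentiated, 16537 and 15166 RPKM in delta, and 646 and 462 RPKM in beta cells, and none was at 0 in both libraries of a population. Ppy and Pyy, hormones of PP cells, summed to 12041 and 11877 RPKM in transdifferentiated, 37076 and 36498 RPKM in delta, and 558 and 802 RPKM in beta cells, with 32.5% of the delta level kept in each pool. The part of alpha and PP cell RNA in the levels of the 9 genes was not tested.

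Several of the 9 genes are also used by neurons and glia, so markers of those cells were read as well. The 10 neural and glial markers summed to 30.1 and 30.7 RPKM in transdifferentiated, 37.2 and 37.6 RPKM in delta, and 33.0 and 28.6 RPKM in beta cells. The glial genes S100b, Sox10, Cdh19, Gfap and Ngfr were under 1 RPKM in both libraries of each population, and Gfap was at 0 in all 6 libraries. All 8 mesenchymal markers were under 1 RPKM in both libraries of each population. Acinar transcripts differed between libraries, with sums of 195 and 2555 RPKM in transdifferentiated, 665 and 879 RPKM in delta, and 387 and 9381 RPKM in beta cells. The 11 beta markers summed to 94901 and 86825 RPKM in transdifferentiated, 1824 and 1499 RPKM in delta, and 222587 and 310677 RPKM in beta cells.

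Whether the female and male pools differed is a comparison that did not enter the choice of the 9 genes. It was tested with limma on log2(RPKM + 1) over all 6 libraries, with population and pool as terms, and the effect of sex cannot be told apart from that of the pool. Of 13022 genes tested, 47 (0.361%) passed an adjusted p under 0.05, with 0.0461% higher and 0.315% lower in the female pools, and 8.62% passed an unadjusted one. Of the 9 genes 0 passed the adjusted and 1 the unadjusted threshold. That 1 gene was Arg1, with a female minus male difference of -0.31 (SE 0.10, adjusted p = 0.42, lower in the female library of 3 of 3 populations). Over the alternatives run, the adjusted p of Arg1 lay between 0.29 and 0.997. Cd24a was also lower in the female library of 3 of 3 populations (-0.21, SE 0.10, adjusted p = 0.64), and Sst was higher in 3 of 3 (0.18, SE 0.10, adjusted p = 0.70). The difference of Ly6h was 0.33 (SE 0.14, adjusted p = 0.58), with the female library higher in 2 of 3 populations. For Hhex, Ptprz1, Gap43, Edn3 and Eef1a2 it lay between -0.07 and 0.09. None of these differences was separated from the spread between libraries by the adjusted test.

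The 9 genes were set beside 215 others at 5 RPKM or more in both delta libraries. All were also at 8 times the beta level or more in both pools, limits that the 9 meet too. The 215 were taken by level alone and are not all delta-cell genes. They include Gcg, Irx1, Irx2, Ppy and Pyy of alpha and PP cells. Above 100% of the delta level were 11 of them, among them Mir344-2 (227%) and Malat1 (127%). These 215 genes kept a median of 39.4% of their delta level in transdifferentiated cells (quartiles 34.3% and 47.9%), and the median of the 9 was 26.1%. Of the 215, 2 lay below the range of the 9 genes, 72 within it and 141 above it. The 2 below were Irx1 (11.8%) and Gcg (13.0%), named after their values were seen. Because the 9 were chosen with their levels known, this places them among the other genes and tests nothing.

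**Figure D3:**
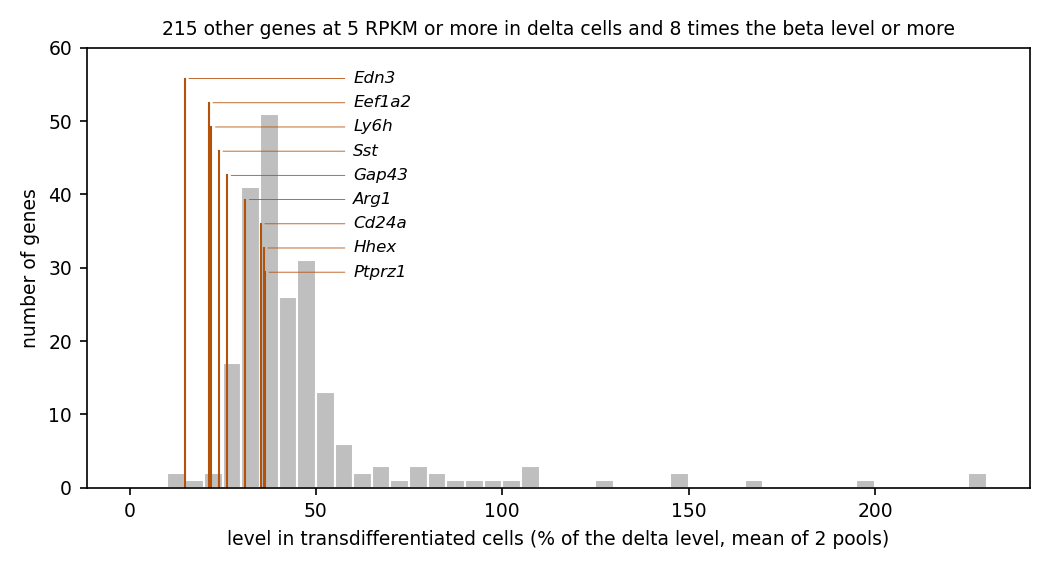
Number of the 215 other genes high in delta and low in beta libraries, by their level in transdifferentiated cells. The level is a percentage of the delta level (mean of the pools), and the 9 genes are marked. The 9 lie between 14.8% (Edn3) and 36.3% (Ptprz1), all below the median of 39.4% of the other genes.

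The genes most like each of the 9 were read from the Euclidean distance between log2(RPKM + 1) profiles, centred per gene, over the 6 libraries and among 5239 genes. Nearest to Sst was Rbp4, a retinol carrier (distance 1.93), followed by the hormone gene Pyy (3.38), the imprinted genes Peg10 (3.93) and Mest (4.06), and the ghrelin receptor Ghsr (4.18). Rbp4 and Pyy were also nearest to Hhex (0.58 and 1.07) and to Arg1 (0.82 and 0.94). Nearest to Ptprz1 were Olfm3 (0.08) and the fatty acid receptor Ffar4 (0.16), nearest to Cd24a were Ghsr (0.38) and Mest (0.45), and nearest to Gap43 were Ghsr (0.42) and Peg10 (0.49). Gfra1 (0.46) and the somatostatin receptor Sstr1 (0.55) were nearest to Ly6h, the potassium channel Kcna5 (0.59) and Rcn3 (0.62) to Eef1a2, and Neurl1a (0.58) and Mfge8 (0.69) to Edn3. Within the set the closest pairs were Hhex and Arg1 (0.40), Cd24a and Gap43 (0.50), and Ly6h and Eef1a2 (0.65). These distances describe 6 libraries of 3 populations, so genes of like fold change and level come out near each other.

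Other genes of the same pathways were counted in 10 lists that leave out the 9 and hold 180 genes, of which 124 were tested with limma. Between transdifferentiated and delta cells 11 of the 124 were higher and 42 lower (median log2 fold change -0.28). Of all 13022 genes 12.7% passed in that comparison, 5.53% higher and 7.2% lower (median -0.03). The count of 53 fell when a library was left out, to 25 without the male and 24 without the female transdifferentiated library, 28 without the male and 15 without the female delta library. Between transdifferentiated and beta cells 57 were higher and 16 lower, where 51% of all genes passed, 42.5% higher and 8.46% lower. Between delta and beta cells 66 were higher and 21 lower, where 57.9% of all genes passed, 46.3% higher and 11.7% lower. After median-of-ratios scaling the splits against beta cells were 39 higher and 39 lower for transdifferentiated, and 55 higher and 36 lower for delta cells. That scaling put the median log2 fold change of all genes between delta and beta cells at -0.04, against 0.36 as deposited. The 3 comparisons share libraries.

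**Figure D4:**
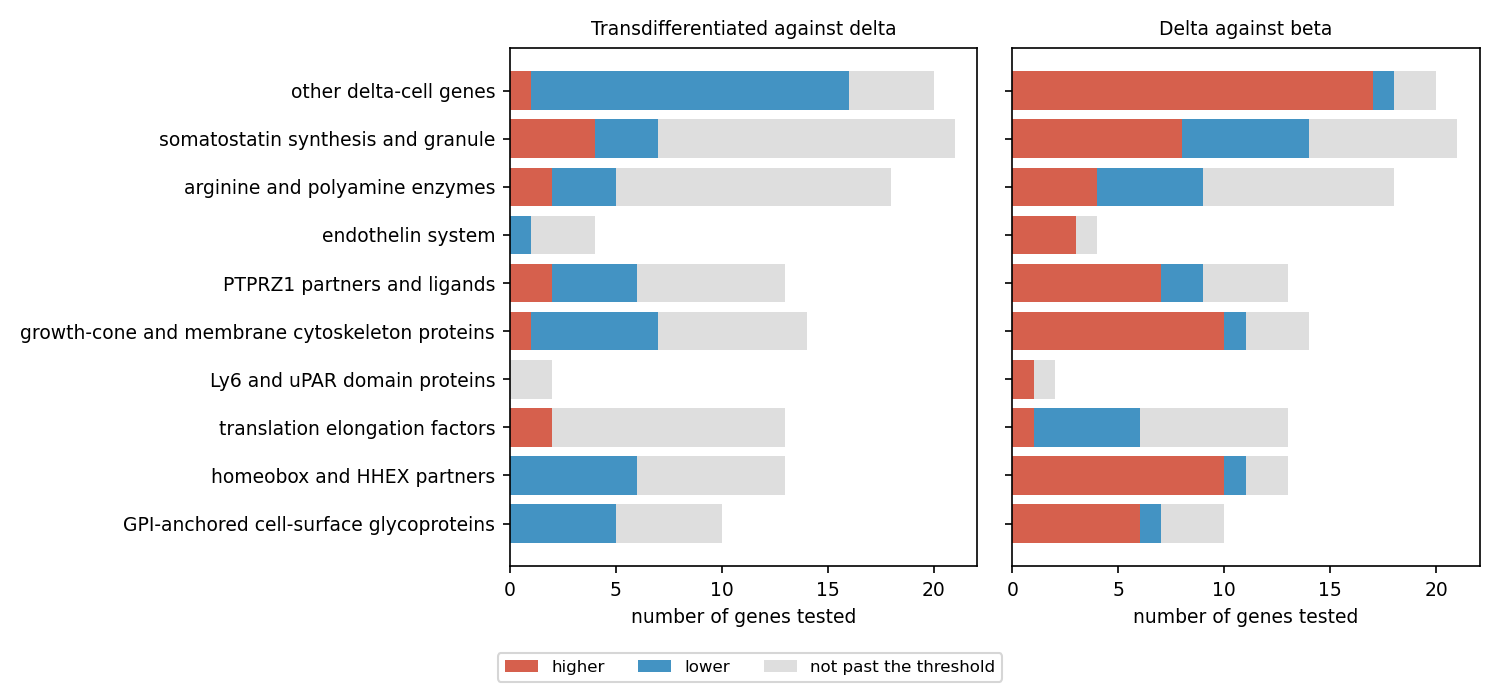
Number of tested genes called higher or lower (limma adjusted p under 0.05) in each of the 10 related lists, for transdifferentiated against delta and for delta against beta cells. Other delta-cell genes, a list chosen with earlier results of these data known, have the most lower calls between transdifferentiated and delta cells, 15 of 20.

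Other delta-cell genes were mostly lower in transdifferentiated than in delta cells, with 15 of 20 lower and 1 higher (median -1.02). Of all genes 7.2% were lower and 5.53% higher. Between delta and beta cells 17 were higher and 1 lower, against 46.3% and 11.7% of all genes. The list holds genes taken as delta-cell genes, chosen with earlier results of these data known. Its counts and p-values therefore describe these genes and are not independent support. Rbp4 was at 573 ± 6.22 RPKM in transdifferentiated and 1862 ± 132 RPKM in delta cells (SD, n = 2 libraries each), a log2 fold change of -1.70 (SE 0.11, limma adjusted p = 6.36e-04). Ghsr was at 16.3 ± 2.20 RPKM in transdifferentiated and 48.1 ± 2.01 RPKM in delta cells (-1.51, SE 0.13, limma adjusted p = 0.0012). They kept 30.8% and 33.7% of their delta levels, within the range of the 9 genes. The higher gene was Pcsk1, a prohormone convertase that is abundant in beta cells, at 170.2 ± 24.7 RPKM in transdifferentiated, 21.8 ± 1.39 RPKM in delta and 189 ± 70.4 RPKM in beta cells. Its log2 fold change against delta cells was 2.90 (SE 0.25, limma adjusted p = 0.0013). The count of 15 lower genes was 9 without the male transdifferentiated and 7 without the female delta library.

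Genes for making and storing somatostatin went both ways. Of 21 tested, 4 were higher and 3 lower in transdifferentiated than in delta cells, against 5.53% and 7.2% of all genes. In delta against beta cells 8 were higher and 6 lower, against 46.3% and 11.7% of all genes. The 8 and 6 became 5 and 8 after scaling. The higher and lower calls between transdifferentiated and delta cells were 3 and 1 without the male and 1 and 1 without the female transdifferentiated library, and 2 and 0 without the male and 1 and 0 without the female delta library. Besides Pcsk1, the granule protein Chga was higher in transdifferentiated cells (1.04, SE 0.19, limma adjusted p = 0.016), a call lost without the female transdifferentiated library (0.12) or without either delta library (0.094 and 0.051), and with no filter on low values (0.31). The homeobox gene Isl1 was lower in transdifferentiated cells (-0.60) and higher in delta than in beta cells (2.44). Vgf, a precursor of granule peptides, was lower in delta than in beta cells (-1.79). The convertase Pcsk2 was at 485 and 419.9 RPKM in transdifferentiated and 613 and 546 RPKM in delta cells and did not pass (-0.36, limma adjusted p = 0.22).

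Around HHEX, 6 of 13 homeobox genes and HHEX partners were lower and 0 higher in transdifferentiated than in delta cells. Of all genes 7.2% were lower and 5.53% higher. Between delta and beta cells 10 were higher and 1 lower, against 46.3% and 11.7% of all genes. After median-of-ratios scaling the 6 lower calls were 5, and the 10 and 1 were 9 and 1. Gata6 was at 8.01 ± 1.26 RPKM in transdifferentiated and 14.9 ± 1.24 RPKM in delta cells (-0.82). Prox1 was at 20.7 ± 1.36 RPKM in transdifferentiated and 36.6 ± 0.192 RPKM in delta cells (-0.80). Both genes encode transcription factors of pancreas development, and they kept 53.6% and 56.5% of their delta level, against 36.0% for Hhex, a difference that was not tested. Of the 6 lower calls 1 was left without the male transdifferentiated library, and 0 without the female one or without either delta library. The 1 gene lower in delta than in beta cells was the corepressor Tle3 (-0.73), a call lost without the female delta library (limma adjusted p = 0.070).

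Around arginine, 2 of 18 enzymes and carriers were higher and 3 lower in transdifferentiated than in delta cells, against 5.53% and 7.2% of all genes. In delta against beta cells 4 were higher and 5 lower, against 46.3% and 11.7% of all genes. After median-of-ratios scaling, with 17 tested, the 4 and 5 were 4 and 7. The higher and lower calls between transdifferentiated and delta cells were 1 and 1 without either transdifferentiated library, 1 and 2 without the male and 0 and 1 without the female delta library. Ornithine, the product of arginase, is used by Oat and Odc1. Oat, which turns it towards proline and glutamate, was lower in transdifferentiated cells (-1.12, SE 0.13, limma adjusted p = 0.0032) and higher in delta than in beta cells (1.86). Odc1, the first enzyme of polyamine synthesis, went the other way, 0.66 in transdifferentiated against delta cells and -1.09 in delta against beta cells. The proline enzyme Pycr1 was likewise higher in transdifferentiated than in delta cells (1.03) and lower in delta than in beta cells (-1.80). Ass1, which rebuilds arginine from citrulline, was lower in transdifferentiated cells (-0.73), and Gatm, the first enzyme of creatine synthesis, was higher in delta than in beta cells (1.76).

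Among the receptors for endothelins, Ednra was at 0.570 and 0.933 RPKM in transdifferentiated, 2.68 and 2.24 RPKM in delta, and 0.0625 and 0.127 RPKM in beta cells. It was the 1 of 4 tested genes of the endothelin system that was lower in transdifferentiated than in delta cells (-0.99, SE 0.16, limma adjusted p = 0.011). Of all genes 7.2% were lower. The call was lost without the female transdifferentiated or the female delta library. Ednra passed the filter of 1 RPKM in 2 libraries only through its delta libraries, so this call is not independent of the filter. Ednrb, the receptor that binds endothelin 3 with high affinity, was at 1.18 and 1.76 RPKM in transdifferentiated, 3.62 and 2.70 RPKM in delta, and 0.182 and 0.609 RPKM in beta cells. It was higher in delta than in beta cells (1.58) and did not pass between transdifferentiated and delta cells (-0.75, limma adjusted p = 0.069). The ligand genes Edn1 and Edn2 were under 1 RPKM in all 6 libraries, so Edn3 was the endothelin gene with the highest level in both YFP-positive populations.

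Among ligands and partners of PTPRZ1, 7 of 13 were higher and 2 lower in delta than in beta cells, against 46.3% and 11.7% of all genes. After median-of-ratios scaling the 7 and 2 were 7 and 3. Between transdifferentiated and delta cells 2 were higher and 4 lower, against 5.53% and 7.2% of all genes. The higher calls numbered 2 whichever of the libraries compared was left out, and the 4 lower ones became 2 without the male and 1 without the female transdifferentiated library, and 3 without the male and 1 without the female delta library. Ptn, which encodes the ligand pleiotrophin, was at 1.30 ± 0.0297 RPKM in transdifferentiated and 3.58 ± 0.275 RPKM in delta cells (-0.99, SE 0.13, limma adjusted p = 0.0048). Tnr, which encodes the matrix protein tenascin R, was lower in transdifferentiated cells (-1.13) and higher in delta than in beta cells (2.62), as the related phosphatase Ptprg was (2.9996 in delta against beta cells). Nrcam, an adhesion molecule, and Sdc3, a proteoglycan, were higher in transdifferentiated than in delta cells (1.33 and 1.23) and lower in delta than in beta cells (-2.16 and -2.17).

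Of 14 growth-cone and membrane cytoskeleton proteins, 1 was higher and 6 lower in transdifferentiated than in delta cells, against 5.53% and 7.2% of all genes. Between delta and beta cells 10 were higher and 1 lower, against 46.3% and 11.7% of all genes. After median-of-ratios scaling the 6 lower calls were 4, and the split between delta and beta cells was 8 higher and 3 lower. The 6 lower calls became 1 without the female delta library and 2 without any of the other libraries compared. With the replicate block the lower calls between delta and beta cells were 2. Basp1, a membrane protein related to GAP43 in its behaviour at the growth cone, was at 5.98 ± 0.946 RPKM in transdifferentiated and 23.4 ± 0.315 RPKM in delta cells (-1.81, SE 0.15, limma adjusted p = 0.0011). It kept 25.6% of its delta level, against 26.1% for Gap43. The neuronal tubulin Tubb3 was at 14.4 ± 1.81 RPKM in transdifferentiated, 2.98 ± 0.328 RPKM in delta and 34.5 ± 4.07 RPKM in beta cells (1.95 against delta cells, SE 0.14, limma adjusted p = 8.48e-04). The microtubule regulator Stmn3 was lower in transdifferentiated cells (-0.87), and the calmodulin regulator Pcp4 was higher in delta than in beta cells (2.47).

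Of 10 other GPI-anchored surface proteins, 6 were higher and 1 lower in delta than in beta cells, against 46.3% and 11.7% of all genes. After median-of-ratios scaling that split was 4 higher and 2 lower. Between transdifferentiated and delta cells 5 were lower and 0 higher, against 7.2% and 5.53% of all genes. The 5 lower calls became 1 without the male and 4 without the female transdifferentiated library, and 3 without the male and 1 without the female delta library. With the replicate block the lower calls between delta and beta cells were 2. Gfra1, a co-receptor for GDNF, was at 4.95 ± 0.653 RPKM in transdifferentiated and 17.2 ± 2.94 RPKM in delta cells (-1.61, SE 0.15, limma adjusted p = 0.0018), and the related Gfra3 was lower by 1.29 on the log2 scale. The coagulation inhibitor Tfpi was higher in delta than in beta cells (1.57) and the prion protein gene Prnp lower (-0.73). Tfpi passed the filter only through its delta libraries, so its call is not independent of the filter. Of the Ly6 family 2 of 19 listed genes were tested, and 0 passed between transdifferentiated and delta cells (limma, adjusted p). Ly6e was at 61.9 and 82.1 RPKM in transdifferentiated and 102.3 and 115.9 RPKM in delta cells (-0.60, limma unadjusted p = 0.012, adjusted p = 0.075). It passed as lower with the replicate block (limma adjusted p = 0.013). Ly6e was higher in delta than in beta cells (0.83), a call lost with scaling (limma adjusted p = 0.15) or without the male delta library (0.053). Between the pools 1 of the 124 related genes passed, Cd59a, named after its values were seen and higher in the female pools (0.91, limma adjusted p = 0.044, higher in the female library of each population).

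Of 13 translation elongation factors 2 were higher and 0 lower in transdifferentiated than in delta cells, against 5.53% and 7.2% of all genes. The 2 were Hbs1l (0.48), a ribosome rescue factor, and Eef2k (0.47), the kinase of elongation factor 2. Both calls ended without any 1 of the 4 libraries compared, and with the replicate block 1 of them was left, since Eef2k no longer passed (limma adjusted p = 0.054). Between delta and beta cells 1 was higher, Eif5a2 (0.84), and 5 were lower, among them Eif5a (-0.74) and Eef2k (-0.49, a call lost without the male delta library, limma adjusted p = 0.081). After median-of-ratios scaling the 5 lower calls between delta and beta cells became 10, and they became fewer whichever 1 of the 6 libraries was left out. Of all genes 46.3% were higher and 11.7% lower in that comparison as deposited. The list as a whole lay near 0 between transdifferentiated and delta cells (median log2 fold change -0.0011), where Eef1a2 kept 21.3% of its delta level.

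Among the related genes named for transdifferentiated against delta cells, the calls of Pcsk1, Rbp4, Ghsr, Oat, Nrcam, Sdc3, Ptn, Tubb3, Basp1 and Gfra1 held in all 10 alternatives. The calls of Isl1, Odc1, Ass1, Tnr, Stmn3, Hbs1l, Eef2k, Gata6 and Prox1 ended without any 1 of the 4 libraries compared (limma adjusted p between 0.0505 and 0.293). Pycr1 lost its call without the female delta library (0.051), and Gfra3 without the male transdifferentiated or either delta library (0.055 to 0.062). With no filter on low values the calls of Chga, Ass1, Tnr, Stmn3, Hbs1l, Eef2k, Gata6, Prox1 and Gfra3 ended (limma adjusted p between 0.0509 and 0.306), with pseudocount 0.1 those of Tnr, Eef2k and Prox1 (0.0514 to 0.0668), and with scaling that of Stmn3 (0.0501).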

How the data were processed

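RNA of sorted islet cells was sequenced in 6 libraries (TruSeq RNA v2, per the labels' protocols; strand-specific counting is not stated). The authors deposited RPKM values per gene symbol in 1 table. STAR 2.5, featureCounts, edgeR 3.14.0 and GRCm38.p4 are named by the submitters' processing notes. From the table, 27 symbols turned into dates were left out, leaving 46932. RPKM steps gave the denominators: 83.3% to 86.4% of values under 50 reads came out whole within 0.01 reads. RPKM are not counts, so limma 3.58.1 (R 4.3.3) was fitted to log2(RPKM + 1) for 13022 genes (those reaching 1 RPKM in 2 or more libraries), the 3 populations in 1 fit, 2-sided, with Benjamini-Hochberg adjustment. The pseudocount understates changes of low genes. Among the related genes, Ednra, Tfpi, Gpc3 and Pou3f1 reached 1 RPKM in the delta libraries only, so their calls as high in delta cells are not independent of the filter. The fit was tested on simulated data. Counts were also taken with pseudocount 0.1, no filter, median-of-ratios scaling, a replicate block and each library left out.

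The series text takes all populations from the same islets, and same-sex libraries deviated together (correlations 0.36, 0.47 and 0.24), so the replicate numbers pair the samples. The main p-values between populations come from the fit without this pairing, which enters only with the replicate block. The 9 genes and the related lists were chosen with earlier results of these data known. Named from each list were up to 2 called genes a direction, by fold change, in transdifferentiated against delta and in delta against beta cells. Nearest genes were sought among those with a mean of at least 10 RPKM in delta libraries, predicted genes left out. Some genes that this rule or the marker lists name are not reported here. Nothing says that libraries of 1 population came from separate cultures beyond the pools, so p-values measure the spread between these pools.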

Additional observations from a re-analysis of the deposited data

How the results depend on the processing

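The median share of the delta level kept was 26.1%. It was 26.2% after median-of-ratios scaling and 26.0% with the beta level subtracted, 71.0% on the log2 scale, and between 23.1% and 29.1% with 1 pool left out. With 1 library left out, genes called between transdifferentiated and delta cells numbered 522 to 2055 (1657 with all), and related genes 15 to 60 (53 with all). Without a filter the related genes called were 34. Between transdifferentiated and beta cells the range was 4132 to 7086 (6642 with all). Between the pools it was 39 to 422 (47 with all), and 0 genes passed without a filter, where more genes are tested. With a replicate block 1925 genes and 56 related genes were called between transdifferentiated and delta cells, Eef2k lost its call (limma adjusted p = 0.054), and Ly6e, Pcp4, Pcsk1n and Vgf gained one (0.013, 0.0089, 0.029 and 0.049).

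Scaling turned the split of all calls against beta cells to 3235 higher and 3891 lower (5540 and 1102 as deposited) for transdifferentiated, and 3564 higher and 3930 lower (6025 and 1521) for delta cells. Differences between pools near 0 changed sign. Ptprz1 was at 0.0096 with pseudocount 0.1 and 0.025 with scaling. With 1 library left out, the difference ranged between -0.13 and 0.035 for Hhex, -0.018 and 0.014 for Ptprz1, -0.056 and 0.10 for Gap43, -0.023 and 0.090 for Edn3, and -0.060 and 0.22 for Eef1a2. The cause of these shifts was not tested. With 2 pools a population and 1.03 RPKM or less for Edn3 in transdifferentiated cells, depth limits that gene most.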
